A study of Homo sapiens with 6 samples.

Results

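The S100 genes encode small calcium-binding proteins, and 10 of them were followed in HMCB cells after the transcript of AHCYL1 was lowered. HMCB is a human melanoma cell line whose genotype the labels give as Nras Q61K. The 10 genes, S100A1, S100A2, S100A3, S100A4, S100A6, S100A10, S100A11, S100A13, S100A16 and S100B, were taken by name from the 26902 gene symbols of the deposited table. All 10 were listed there at 1 TPM or more in every library. TPM is a transcript level that is corrected for transcript length and scaled to the same total in each library. One group of 3 libraries came from cells given a control siRNA (siNC) and the other group of 3 from cells given an siRNA against AHCYL1 (siAHCYL1), with RNA taken 3 days after transfection. AHCYL1, also known as IRBIT, binds the IP3 receptors through which the endoplasmic reticulum releases calcium, and the series asks how it supports the growth of NRAS-mutant melanoma cells. Both groups are the same single line, and the labels give no sequence for either siRNA. The replicates are called biological without separate cultures being named. The p-values therefore measure the spread between these libraries, which may be technical in part.

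S100 proteins carry a pair of EF-hands, helix-loop-helix folds that hold a calcium ion. They have no enzyme activity. Most work as dimers that open a hydrophobic cleft when calcium rises and then grip a target protein, such as an annexin or a myosin. S100A10 is the exception among them, since its loops have lost calcium binding and it is held in the open shape. Most of the genes sit side by side on chromosome 1, next to the genes of the skin barrier. S100B lies apart on chromosome 21, and its protein is used in pathology and in blood as a marker of melanoma.

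After the AHCYL1 siRNA, 7 of the 10 genes rose, 0 fell and 3 did not pass the test. The risen genes were S100B, S100A6, S100A11, S100A4, S100A1, S100A10 and S100A3, from the largest to the smallest log2 fold change. The genes that did not pass were S100A2, S100A13 and S100A16. A gene was called at an adjusted p under 0.05 in limma's moderated test on log2(TPM + 1), adjusted by Benjamini-Hochberg over 13266 genes. This response was broad, and 51.6% of the genes tested were called, 30.4% as higher and 21.2% as lower. Of the calls over all genes 58.9% were higher, and with quantile normalization 48.1% were. The median log2 fold change was 0.52 over the 10 members and 0.06 over all genes tested. The siNC and siAHCYL1 libraries did not overlap in 7 of the 10 members and in 59.2% of the genes tested. Log2 fold changes are siAHCYL1 minus siNC, and the added 1 TPM makes those of low genes smaller than the true change.

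**Figure D1:**
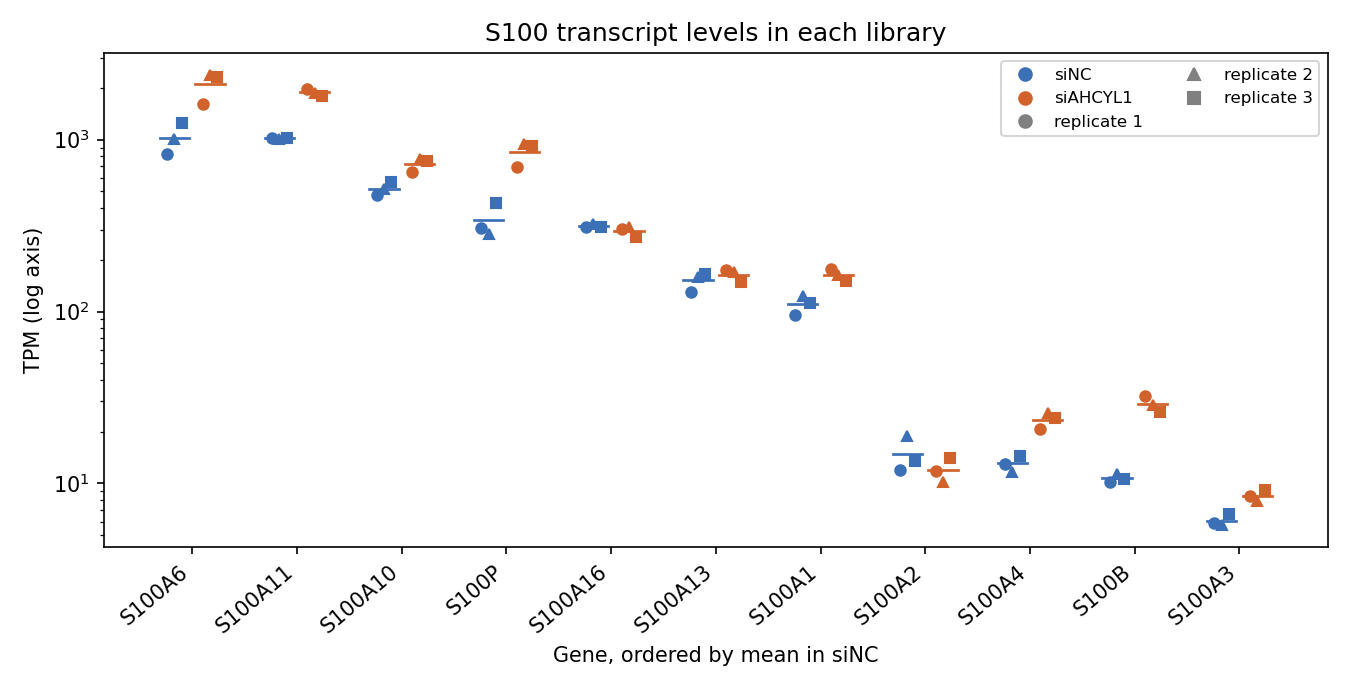
TPM on a log axis for the 10 members and S100P in each of the 3 siNC (blue) and 3 siAHCYL1 (orange) libraries. Symbols mark the replicate number and bars the group mean. S100A6 and S100A11 are the highest and S100A3 the lowest of the 10 in siNC. The colours are apart for 7 members and S100P and overlap for S100A16, S100A13 and S100A2.

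AHCYL1 itself was at 150.02, 134.05 and 131.09 TPM in siNC and at 13.45, 11.13 and 10.97 TPM in siAHCYL1. That is a drop in every siAHCYL1 library, to 0.0856 of the control mean (exact permutation test, two-sided, p = 0.1, the smallest that 3 against 3 allows). Each library had 13035 to 13189 genes at 1 TPM or more. TPM keeps no sequencing depth, which is unknown. Of 7 markers of the melanocytic lineage, whose sum was 1050.19 to 1073.93 TPM in siNC and 1007.35 to 1045.87 in siAHCYL1, SOX10, the neural crest transcription factor, was at 992.99 to 1049.98 TPM and MITF, the master regulator of melanocytes, at 8.38 to 12.67. The pigment enzyme gene DCT fell from 11.4 ± 0.584 to 0.337 ± 0.249 TPM (log2 fold change -3.23, limma adjusted p = 1.14e-06), and TYRP1, another pigment enzyme gene, rose from 1.59 to 3.76 TPM (0.87, limma adjusted p = 0.00897). TYR was at 0 in all 6 libraries, MLANA did not exceed 0.79 TPM, and PMEL went from 0.877 to 1.83 TPM (0.64, limma adjusted p = 0.0484). The siNC libraries had PMEL at 1.53, 0.76 and 0.34 TPM. PMEL thus met the minimum of 1 TPM in 3 libraries through siAHCYL1, at levels near that minimum. Keratinocyte markers (KRT5, KRT14) summed to 0.56 to 2.07 TPM in siNC and 0.32 to 1.26 in siAHCYL1, with KRT5 at 0 throughout. Endothelial markers (PECAM1, VWF) stayed at or below 0.06 TPM, with VWF at 0. Immune markers (PTPRC, CD3E, CD68) summed to 3.60 to 4.38 TPM in siNC and 7.67 to 11.36 in siAHCYL1, most of it PTPRC, with CD3E at 0. Fibroblast markers (COL1A1, COL1A2, DCN, LUM) summed to 15.28 to 17.93 TPM in siNC and 26.06 to 32.42 in siAHCYL1, but the list went both ways. LUM rose from 13.98 ± 1.33 to 28.96 ± 3.38 TPM, COL1A1 fell from 2.18 ± 0.47 to 0.493 ± 0.249 TPM (log2 fold change -1.09, limma adjusted p = 0.00191), and COL1A2 and DCN did not exceed 0.21 TPM. DCT and COL1A1 met the minimum of 1 TPM in 3 libraries through siNC alone. The part of other cells in the S100 values was not tested. In these bulk libraries, a change in the number of cells of a kind and a change in RNA per cell cannot be told apart.

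Of the 7 members that rose, 6 have a start site in the RefSeq promoter table, and the 250 bases before each are printed because these genes moved the same way. Letters in capitals are matches, on either strand, to TATAAA (the TATA box), GGGCGG (the GC box bound by SP1), TGANTCA (the AP-1 site), CATGTG or CACGTG (E-boxes, of the kind MITF binds). The coordinates of these stretches are of GRCh38.p14 and the sequences read 5′ to 3′ toward the gene.
S100A6 (chr1:153535992-153536241, minus strand): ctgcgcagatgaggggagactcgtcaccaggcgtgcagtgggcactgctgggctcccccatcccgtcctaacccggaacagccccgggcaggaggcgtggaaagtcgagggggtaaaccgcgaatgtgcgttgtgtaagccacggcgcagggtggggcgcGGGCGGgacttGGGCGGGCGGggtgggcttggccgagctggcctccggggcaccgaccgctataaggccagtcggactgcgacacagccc
S100A11 (chr1:152037005-152037254, minus strand): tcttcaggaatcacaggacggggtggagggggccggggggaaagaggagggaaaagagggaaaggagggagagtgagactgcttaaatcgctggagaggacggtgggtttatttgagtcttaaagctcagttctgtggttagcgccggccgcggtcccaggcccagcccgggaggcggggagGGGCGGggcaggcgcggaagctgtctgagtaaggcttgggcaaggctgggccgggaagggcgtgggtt
S100A10 (chr1:151993860-151994109, minus strand): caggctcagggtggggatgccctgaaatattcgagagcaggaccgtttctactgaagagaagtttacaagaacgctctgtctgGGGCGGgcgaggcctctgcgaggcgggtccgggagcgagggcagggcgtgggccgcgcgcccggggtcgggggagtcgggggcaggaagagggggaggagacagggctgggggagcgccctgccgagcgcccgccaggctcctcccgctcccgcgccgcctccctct
S100A4 (chr1:153545807-153546056, minus strand): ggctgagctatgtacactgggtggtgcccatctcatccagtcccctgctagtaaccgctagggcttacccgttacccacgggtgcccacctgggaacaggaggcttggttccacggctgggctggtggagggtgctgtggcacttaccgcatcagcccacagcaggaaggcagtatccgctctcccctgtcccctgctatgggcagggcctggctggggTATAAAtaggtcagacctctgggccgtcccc
S100A3 (chr1:153549259-153549508, minus strand): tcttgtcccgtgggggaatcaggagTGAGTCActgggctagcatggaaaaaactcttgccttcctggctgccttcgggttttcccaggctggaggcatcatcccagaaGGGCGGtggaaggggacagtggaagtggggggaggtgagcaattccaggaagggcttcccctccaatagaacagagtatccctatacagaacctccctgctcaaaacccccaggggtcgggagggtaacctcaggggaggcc
S100A1 (chr1:153628184-153628433, plus strand): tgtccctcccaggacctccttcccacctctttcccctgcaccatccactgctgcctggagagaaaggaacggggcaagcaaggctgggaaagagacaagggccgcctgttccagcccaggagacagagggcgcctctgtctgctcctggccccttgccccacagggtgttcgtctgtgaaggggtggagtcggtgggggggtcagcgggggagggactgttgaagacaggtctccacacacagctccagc

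The GC box stood in 4 of these 6 stretches, and in 42.6% of 35116 promoter stretches of this length genome-wide. S100A6 held it 3 times, at positions -90, -79 and -75 from the start site, and the last pair overlap. S100A11 held it once at -68, S100A10 at -167 and S100A3 at -142. S100A4 was the only one of the 6 with TATAAA, at -31, the place of a classical TATA box, against 10.7% of all stretches. S100A3 was the only one with the AP-1 letters, at -225, against 6.57% of all. Neither E-box was in any of the 6, against 9.42% (CATGTG) and 6.34% (CACGTG) of all. The 3 members that did not pass have 7 start sites in the table, of which 2 held the GC box, 1 TATAAA, 1 the AP-1 letters and 2 CATGTG. A match is a run of letters and does not show that a factor binds there.

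S100A10 and S100A11, both known for binding annexins, rose. S100A10, also called p11, pairs with annexin A2 at the plasma membrane, where the complex binds plasminogen activators and carries ion channels to the surface. It was at 476.09, 516.32 and 565.23 TPM in siNC and at 647.70, 767.10 and 756.16 TPM in siAHCYL1. Every siAHCYL1 library was above every control, with means of 519 ± 44.6 and 724 ± 66 TPM (SD, n = 3) and a log2 fold change of 0.48 (SE 0.086, limma adjusted p = 0.00141). S100A11, which binds annexin A1 and annexin A2 and takes part in membrane repair, was at 1019.47, 1013.51 and 1023.02 TPM in siNC. The siAHCYL1 libraries had 1983.00, 1873.64 and 1791.29 TPM. Relative to the mean, its controls lay closer together than those of any other member, at 1019 ± 4.81 TPM, and its siAHCYL1 mean was 1883 ± 96.2 TPM (n = 3). The log2 fold change of 0.88 (SE 0.057, limma adjusted p = 3.93e-06) was above that of 93.3% of the genes tested. S100A11 has 2 annotated pseudogenes, S100A11P1 and S100A11P2, that are not among the symbols of the table, and reads they share with it could be counted to it.

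S100A6 and S100A4 are linked to the cytoskeleton and to cell movement, and both rose. S100A6, calcyclin, binds the calcyclin-binding protein CACYBP and annexins. It was at 824.56, 1010.94 and 1246.93 TPM in siNC and at 1608.82, 2363.35 and 2324.26 TPM in siAHCYL1. The groups were apart although this was the most scattered of the abundant members, with means of 1027.5 ± 212 and 2099 ± 425 TPM (SD, n = 3). That was 2.04-fold higher (log2 fold change 1.03, SE 0.17, limma adjusted p = 0.000937). S100A4, which binds non-muscle myosin IIA and is known for its link to metastasis, was at 13.06, 11.70 and 14.48 TPM in siNC and at 20.61, 25.58 and 24.12 TPM in siAHCYL1. S100A4 was low in these cells beside S100A6, at 13.1 ± 1.39 and 23.4 ± 2.55 TPM (SD, n = 3), and its groups did not overlap (log2 fold change 0.79, SE 0.11, limma adjusted p = 0.000397).

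S100B showed the largest log2 fold change of the 10. It dimerises in glial and melanocytic cells and is known to bind the kinase NDR1. It was at 10.21, 11.35 and 10.59 TPM in siNC and at 32.26, 28.62 and 26.07 TPM in siAHCYL1. The lowest siAHCYL1 library was above every control by more than the spread of either group. The means were 10.7 ± 0.58 and 28.98 ± 3.11 TPM (SD, n = 3), a 2.71-fold difference (log2 fold change 1.35, SE 0.10, limma adjusted p = 9.74e-06). That change was above those of 97.9% of the genes tested. S100B was low in level all the same, above only 31.7% of the tested genes in siNC.

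S100A1 and S100A13 lie head to head on opposite strands and overlap on the annotation, and these libraries do not keep the strand. Reads from the shared stretch can therefore not be told apart, so the values of this pair are uncertain. S100A1, known in muscle as a regulator of calcium pumps and release channels, was at 95.84, 122.52 and 111.95 TPM in siNC and at 177.43, 162.38 and 149.96 TPM in siAHCYL1. It rose without overlap, from 110 ± 13.4 to 163 ± 13.8 TPM (SD, n = 3), with a log2 fold change of 0.57 (SE 0.098, limma adjusted p = 0.00116). S100A13, which helps FGF1 and interleukin 1 alpha leave the cell without a signal peptide, was at 130.08, 159.28 and 165.70 TPM in siNC and at 174.40, 169.60 and 148.91 TPM in siAHCYL1. Its groups overlapped, and it did not pass (log2 fold change 0.12, 95% interval -0.11 to 0.34, limma adjusted p = 0.347). Without siNC replicate 1, its lowest library, the value was 0.01. The ratio of S100A1 to S100A13 was 0.737, 0.769 and 0.676 in siNC and 1.017, 0.957 and 1.007 in siAHCYL1, with no overlap (exact permutation p = 0.1, the smallest possible).

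S100A3 was the lowest member and the weakest call. It is best known from the hair cuticle and binds zinc as well as calcium. It was at 5.87, 5.76 and 6.60 TPM in siNC and at 8.45, 7.93 and 9.11 TPM in siAHCYL1, without overlap (log2 fold change 0.42, SE 0.12, limma adjusted p = 0.0127). Leaving out siAHCYL1 replicate 3 ended the call (0.38, limma adjusted p = 0.0503). A longer annotated form of S100A4 overlaps S100A3 on the same strand, so some reads could belong to either.

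S100A2 and S100A16 did not pass. S100A2, a mostly nuclear member of epithelial cells, was at 11.93, 18.88 and 13.44 TPM in siNC and at 11.78, 10.25 and 14.04 TPM in siAHCYL1. The ranges overlapped widely (log2 fold change -0.26, 95% interval -0.64 to 0.12, limma adjusted p = 0.23). With 1 library left out, the value lay between -0.39 (without siNC replicate 1) and -0.08 (without siNC replicate 2), and neither passed. S100A16, a widely expressed member, was at 308.42, 323.15 and 311.77 TPM in siNC and at 302.03, 311.98 and 272.84 TPM in siAHCYL1. Its interval was the narrowest of the 3 (log2 fold change -0.09, 95% interval -0.24 to 0.06, limma adjusted p = 0.271). With each library's trend over transcript length removed, S100A16 passed as lower (-0.22, limma adjusted p = 0.0092).

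**Figure D2:**
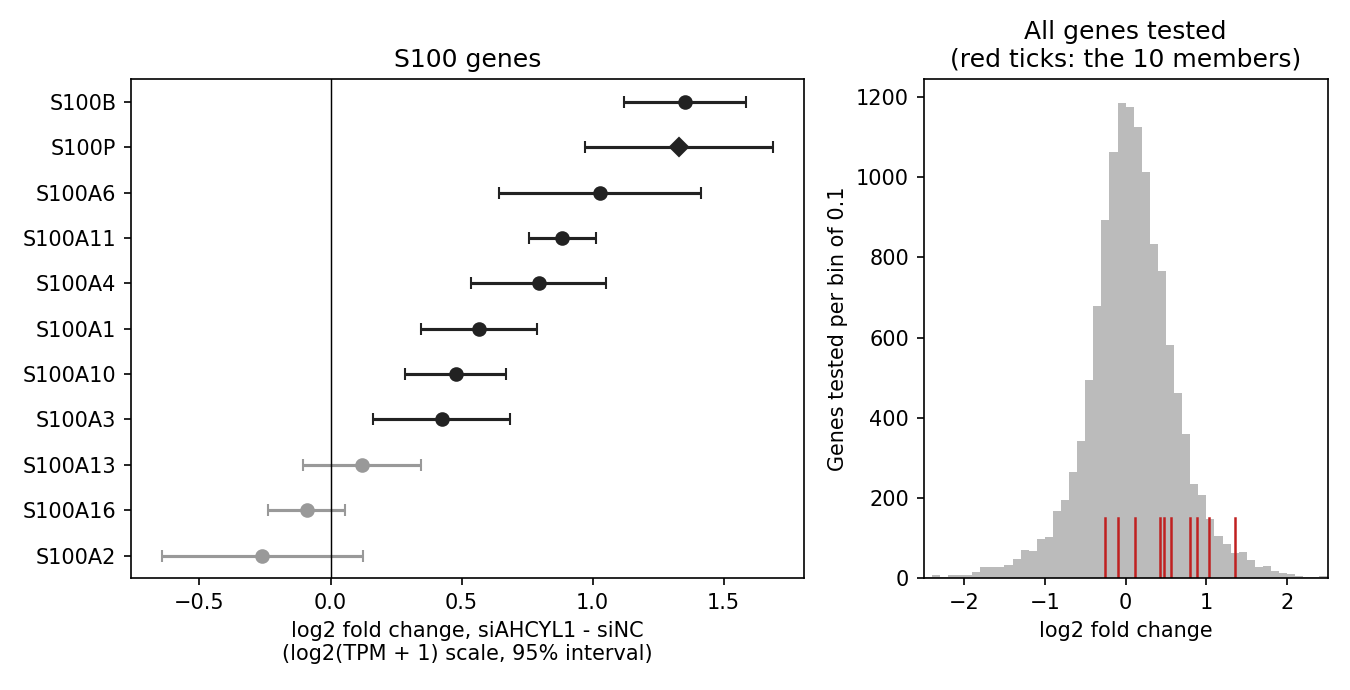
Left, log2 fold change (siAHCYL1 minus siNC, log2(TPM + 1) scale) with its 95% interval for the 10 members (circles) and S100P (diamond), black where the adjusted p is under 0.05. Right, the same quantity over all 13266 genes tested, cut at 2.5 on both sides, with the members as red ticks. The members run from -0.26 (S100A2) to 1.35 (S100B), and 8 of the 10 lie above the median of all genes.

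Within the 10 members, most of the transcripts came from 3 genes. S100P, which is outside the 10 and not in this ranking, had means of 339 TPM in siNC and 848 TPM in siAHCYL1. That was above S100A16 in siNC and above S100A10 in siAHCYL1. In siNC, S100A6 and S100A11 had means of 1027.5 and 1018.7 TPM and overlapping ranges, and both were above S100A10. S100A16, S100A13 and S100A1 followed in that order, with no overlap between neighbours. A wide gap then separated S100A2, S100A4, S100B and S100A3, of which S100A2 and S100A4 overlapped. In siAHCYL1 the order of the first 6 was the same, S100A13 and S100A1 now overlapped at means of 164 and 163 TPM, and S100B (28.98) and S100A4 (23.4) stood above S100A2 (12.02). The 10 members held 0.290%, 0.319% and 0.347% of all TPM in siNC and 0.497%, 0.572% and 0.552% in siAHCYL1. That was 1.70 times as much, with no overlap. S100A6, S100A11 and S100A10 made up 79.6% to 81.7% of the members' sum in siNC and 85.4% to 88.3% in siAHCYL1.

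Of the 10 members, 9 have transcripts under 1000 bases. Transcripts of that length held 28.8%, 30.5% and 32.3% of TPM in siNC and 25.8%, 29% and 29.9% in siAHCYL1. These ranges overlapped, with means of 30.53% and 28.23% (exact permutation p = 0.3). This share counts transcripts by their level, while the length trend removed below counts each gene alike. In both groups replicate 1 had the lowest share. S100A6 and S100A10 also had their lowest levels in replicate 1 of both. Without replicate 1 of both groups the log2 fold change was 1.06 for S100A6 and 0.49 for S100A10, both past the threshold. With the length trend removed, all 10 members had lower values than reported. S100A6 was at 0.89, S100A10 at 0.35, S100A11 at 0.74 and S100B at 1.22. S100A4 was at 0.65, S100A1 at 0.42 and S100A3 at 0.28 (limma adjusted p = 0.0459). These 7 stayed past the threshold. The part of transcript length in the replicate spread and in the rises was not tested.

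Outside the 10, S100P was the other S100 gene with substantial transcripts. S100P lies on chromosome 4, is named for placenta, and signals outside the cell through the receptor RAGE. It was at 305.26, 283.79 and 428.60 TPM in siNC and at 691.23, 939.61 and 913.83 TPM in siAHCYL1. It rose from 339 ± 78.1 to 848 ± 137 TPM (SD, n = 3), with a log2 fold change of 1.33 (SE 0.16, limma adjusted p = 0.000133). Its siAHCYL1 mean was 2.501-fold its siNC mean, beside 2.705-fold for S100B, and the difference between these was not tested. Of the other 10 S100 genes looked up, 7 were at 0 in every library, among them S100A8 and S100A12 of myeloid cells. S100A7, S100A9 and S100A14 were each above 0 in 1 library, at no more than 0.85 TPM. Of 7 genes of the fused type, long skin proteins that begin with an S100 domain, 1 was tested. That gene, FLG (filaggrin), rose from 5.10 ± 0.34 to 8.44 ± 1.03 TPM (log2 fold change 0.63, limma adjusted p = 0.00276).

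Along chromosome 1 in GENCODE 29, the risen genes stood at both ends of the row and the others between them. The far end was S100A1 alone. S100A10 (positions 151982915 to 151994390 of GRCh38, GENCODE 29) and S100A11 (152032506 to 152047907) come first and both rose. S100A6 (153534599 to 153536244), S100A4 (153543613 to 153550136) and S100A3 (153547329 to 153549372) come next and rose. S100A2 (153561108 to 153567890), S100A16 (153606886 to 153613145) and S100A13 (153618787 to 153631360) follow in an unbroken run apart from S100A14, which was not tested, and none of them passed. S100A1 (153627926 to 153632039), at the end of the row and on the opposite strand to the others tested there, rose. In RefSeq, S100A1 (153628434 to 153632039) lies within S100A13 (153618799 to 153634361), which then ends the row. Reads from the stretch that this pair shares cannot be told apart, so the pattern at this end is uncertain. S100B is at 46598962 to 46605208 of chromosome 21. Within the row, 48 other genes of the table lie between the outermost S100 genes, many of them skin barrier genes, and 37 of these were at 0 in every library. Only 3 could be tested, and FLG rose, SPRR3 fell and SPRR2D did not pass.

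**Figure D3:**
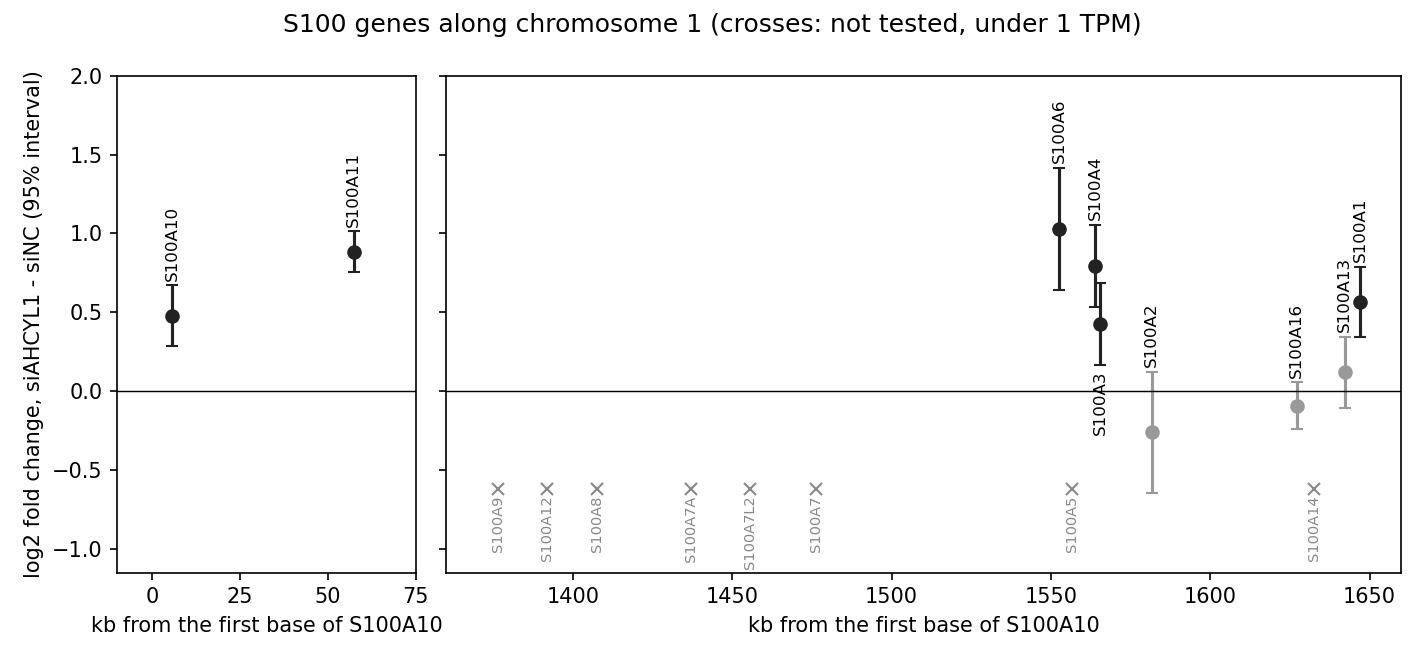
Log2 fold change (siAHCYL1 minus siNC) with its 95% interval for the S100 genes on chromosome 1, against the distance in kb of each gene's middle from the first base of S100A10. The axis is broken between S100A11 and S100A9, black points passed the test, grey points did not, and crosses mark genes under 1 TPM that were not tested. S100A2, S100A16 and S100A13, which did not pass, stand between S100A6, S100A4 and S100A3 on one side and S100A1 alone on the other. In RefSeq, S100A1 lies within S100A13.

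Of 40 genes listed for proteins that S100s bind, receptors included, 31 were tested. Among these, 12 rose, 13 fell and 6 were not called, and the median log2 fold change was 0.09. Those that rose and fell were 38.7% and 41.9% of those tested, beside 30.4% and 21.2% of all genes. Under median-of-ratios or quantile scaling 9 rose and 14 fell. These scalings moved the whole table as well. Over all genes 3652 rose and 3542 fell under median-of-ratios scaling, and 3471 and 3743 under quantile normalization. In the main fit these numbers were 4030 and 2814. The largest rise among them was that of ANXA1. This gene, the partner of S100A11 and a regulator of inflammation, was at 543.62, 501.49 and 478.47 TPM in siNC and at 2172.03, 1932.41 and 1873.61 TPM in siAHCYL1 (log2 fold change 1.97, SE 0.074, limma adjusted p = 2.72e-07). ANXA2, the partner of S100A10, was at 1138.94, 1053.71 and 954.13 TPM in siNC and at 1627.34, 1460.06 and 1417.54 TPM in siAHCYL1 (0.52, SE 0.080, limma adjusted p = 0.000601). The ratio of S100A10 to ANXA2 was 0.418, 0.490 and 0.592 in siNC and 0.398, 0.525 and 0.533 in siAHCYL1, and these ranges overlapped (exact permutation p = 0.9). AHNAK, a giant scaffold protein held at the membrane by that pair, rose (0.74, limma adjusted p = 0.00205). MYH9, the non-muscle myosin IIA heavy chain that S100A4 binds, rose from 192 ± 13.4 to 360 ± 13.5 TPM (0.90, limma adjusted p = 8.32e-06). IQGAP1, a scaffold of the actin cortex (0.68), and PLAT, the tissue plasminogen activator (0.67), also rose.

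Other partners fell. CACYBP, which takes its name from binding S100A6, was at 156.25, 134.55 and 119.39 TPM in siNC and at 93.64, 81.05 and 76.33 TPM in siAHCYL1 (log2 fold change -0.70, SE 0.11, limma adjusted p = 0.00062). PGM1, a glycogen metabolism enzyme that S100A1 binds, fell from 95.7 ± 3.89 to 60.3 ± 2.73 TPM (-0.66, limma adjusted p = 5.53e-05). The proton-gated channel ASIC1 (-1.14), the vesicle calcium sensor SYT1 (-0.85) and the NDR2 kinase gene STK38L (-0.82) completed the 5 largest falls. Of the receptors, AGER, which encodes RAGE, was at 5.54, 3.03 and 3.21 TPM in siNC and 4.45, 5.55 and 5.79 TPM in siAHCYL1. It did not pass (0.38, limma adjusted p = 0.143). With siNC replicate 1 left out it passed (0.60, limma adjusted p = 0.0153), as it did with both first replicates left out (0.70, limma adjusted p = 0.0061). TLR4, the other receptor, was listed at 0 in all 6 libraries. S100PBP, which encodes a nuclear protein that binds S100P, had 24.4 ± 2.11 and 25.1 ± 1.96 TPM and did not pass (0.04, 95% interval -0.17 to 0.26, limma adjusted p = 0.735).

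**Figure D4:**
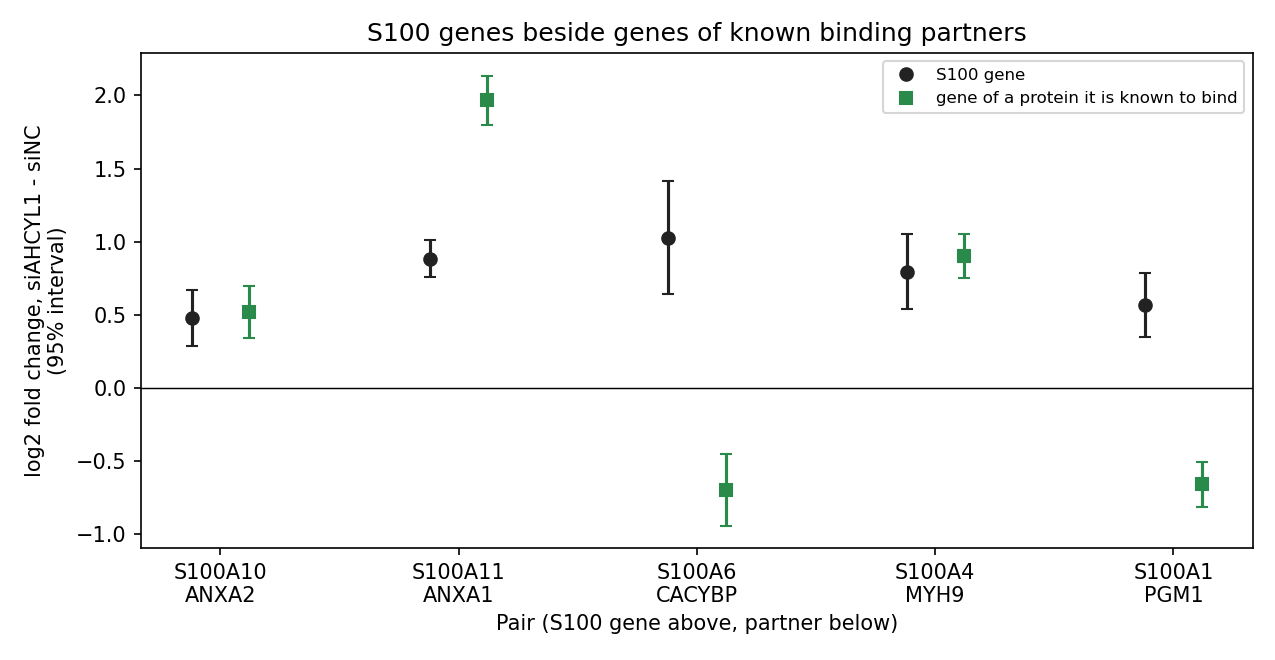
Log2 fold change (siAHCYL1 minus siNC) with its 95% interval for 5 members (black circles) beside the gene of a protein each is known to bind (green squares). ANXA2, ANXA1 and MYH9 lie above 0 with their S100 partners, and CACYBP and PGM1 lie below 0 while theirs lie above it. The 5 pairs were picked by hand and S100B is not among them. Of the 31 listed partner genes tested, 12 rose and 13 fell.

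Of 82 genes listed for EF-hand proteins outside the family, 67 were tested. Among these, 24 rose, 14 fell and 29 were not called, and the median log2 fold change was 0.11. The risen and fallen genes were 35.8% and 20.9% of those tested, near the 30.4% and 21.2% of all genes, so the counts do not set these genes apart. Under median-of-ratios or quantile scaling 21 rose and 19 fell. Over all genes, 50.8% and 48.1% of the calls were higher under these scalings, against 58.9% in the main fit. The largest rise was that of KCNIP1, a calcium-sensing subunit of voltage-gated potassium channels, from 2.03 ± 1.00 to 21.5 ± 2.59 TPM (2.93, limma adjusted p = 7.06e-06). FSTL1, a secreted glycoprotein (1.42), LCP1, the actin-bundling protein plastin 2 (1.29), and the Golgi and secreted calcium binders NUCB1 (0.89) and NUCB2 (0.73) followed. The falls were led by SPOCK1, a secreted proteoglycan (-1.68), the mitochondrial EFHD1 (-1.50), PLS1, plastin 1 (-1.32), the lipid enzyme LPCAT2 (-0.97) and RCN3, a calcium binder of the secretory pathway (-0.71). CALM2 and CALM3 encode the same protein, calmodulin, the general calcium sensor of cells. CALM3 rose from 273 ± 6.08 to 373 ± 5.28 TPM (0.45, limma adjusted p = 0.000124). CALM2 had 785 ± 54.5 and 852 ± 36.6 TPM (0.12, limma adjusted p = 0.16) and did not pass. CALM2 passed with siNC replicate 1 left out (0.18, limma adjusted p = 0.0427) and with both first replicates left out (0.15, limma adjusted p = 0.0288).

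Across 15 other fits, 6 of the 7 calls among the members never changed. S100B stayed between 1.22 and 1.42, S100A6 between 0.88 and 1.21, S100A11 between 0.74 and 1.07, S100A4 between 0.65 and 0.88, S100A1 between 0.41 and 0.65 and S100A10 between 0.35 and 0.56.

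**Figure D5:**
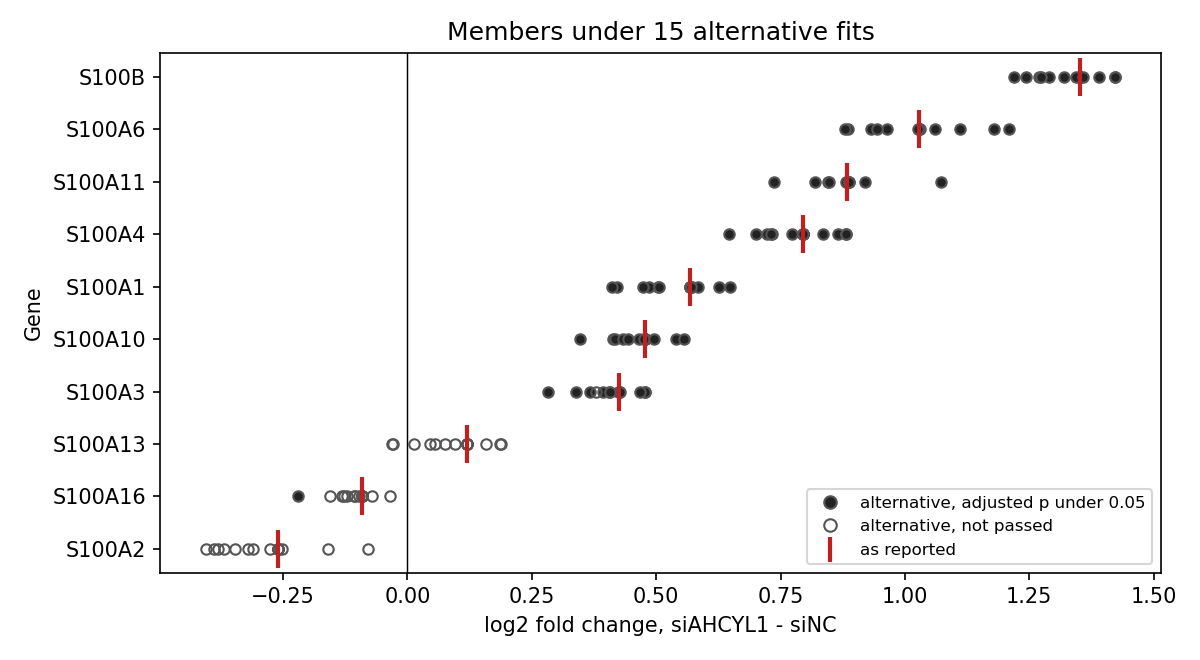
Log2 fold change of each member as reported (red bar) and under 15 alternative fits (circles, filled where the adjusted p is under 0.05). Filled circles stay right of 0 for S100B, S100A6, S100A11, S100A4, S100A1 and S100A10, 1 open circle appears for S100A3 at 0.38, and 1 filled circle left of 0 for S100A16 at -0.22.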

How the data were processed

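RNA-seq libraries of HMCB cells were analysed from 1 table of TPM, which the authors made and deposited. The submitters' processing notes name STAR, RSEM and GRCh38, without versions. The gene annotation is not given in the sources used here. Per the labels' protocols, the libraries are non-directional. Columns with the prefix nc were taken as siNC and those with si as siAHCYL1, the only other group.

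Genes were kept if 3 or more of the 6 libraries had 1 TPM or more. log2(TPM + 1) was fitted with limma 3.58.1 (R 4.3.3, group term, intensity trend, two-sided). The Benjamini-Hochberg adjustment ran over all 13266 genes. The script was tested on simulated data. Transcript lengths are medians of GENCODE 29 basic transcripts, and promoters come from RefSeq (GRCh38.p14), with 9 of 10 members matched. Protein sequences were not used here.

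The members, lists and rules were chosen with earlier results of these data known. Named were all members, the expressed S100 genes, the 5 largest rises and falls of each list at a mean of 5 TPM or more, and preset partners, receptors and calmodulins, of which some are not reported here. Alternatives were another pseudocount (0.1), no filter or 5 TPM, median-of-ratios and quantile scaling, the replicate block, untrended robust moderation, the length trend removed, and libraries left out.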

Additional observations from a re-analysis of the deposited data

How the results depend on the processing

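The 6844 genes called over the whole table ranged from 6055 (filter at 5 TPM, fewer genes tested) to 7919 (replicate block), and from 5672 to 6799 with 1 library left out. The count of members called stayed at 7, except 6 without siAHCYL1 replicate 3 and 8 with the length trend removed. Of the member results, S100A3 ranged from 0.38 to 0.48 with 1 library left out (adjusted p = 0.0181 to 0.0503). It was lower under quantile normalization (0.34, adjusted p = 0.0315) and lowest with the length trend removed (0.28, adjusted p = 0.0459). S100A16 passed as lower with the length trend removed (-0.22). S100A13, never past the threshold, turned sign with the length trend removed (-0.0291) and without replicate 1 of both groups (-0.0316). For these changes the cause was not tested. Among the other genes named, S100PBP, never past the threshold, turned sign under median-of-ratios scaling (-0.0194) and quantile normalization (-0.0383) and lay between -0.0184 and 0.1101 with 1 library left out, at -0.0003 without siNC replicate 3. CALM2 turned sign with the length trend removed (-0.0074, adjusted p = 0.934). The deviations of same-numbered libraries correlated at 0.233, 0.001 and 0.154, and those of differently numbered libraries at -0.256 to 0.153. By plan, the main fit did not pair libraries by number, and the replicate block was an alternative only. siNC replicate 2 correlated more with siAHCYL1 replicate 1 (0.009) than with its own number. Under the replicate block 7919 genes were called against 6844, the members' 7 calls were the same, and CALM2 (adjusted p = 0.0294) passed. The limma adjusted p was lower than reported for S100A6 (1.64e-05), S100A10 (8.6e-05) and S100A3 (0.0115). For S100A1, S100A4, S100A11 and S100B it was higher than reported. The depth of the libraries is unknown, and no limit could be drawn from it.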

Other observations

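The stretch of chromosome 1 between S100A11 and S100A9 holds the genes of the cornified skin envelope, and 1 of them was abundant in these melanoma libraries. SPRR2D, a small proline-rich protein of the epidermis, was at 119.27, 116.04 and 106.97 TPM in siNC and at 121.77, 128.82 and 113.61 TPM in siAHCYL1. It did not pass (log2 fold change 0.09, 95% interval -0.07 to 0.25, limma adjusted p = 0.334). SPRR2A, SPRR2B, SPRR2C, SPRR2F and SPRR2G were listed at 0 in all 6 libraries and SPRR2E in 5. These genes are near-identical copies, so the single value of SPRR2D is uncertain. SPRR3 was at 2.84, 1.90 and 5.55 TPM in siNC and at 1.17, 0.00 and 0.71 TPM in siAHCYL1 (log2 fold change -1.43, limma adjusted p = 0.00737). These levels are low, and SPRR3 met the minimum of 1 TPM in 3 libraries through siNC.

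The 7 tested protein-coding genes at the edges of the S100 row were looked up after the members' values had been seen. TDRKH, C2CD4D, THEM4 and CHTOP did not pass, with adjusted p from 0.0737 to 0.867. SNAPIN, a subunit of a lysosome-positioning complex, rose from 84.9 ± 3.23 to 109 ± 8.97 TPM (log2 fold change 0.35, limma adjusted p = 0.00371), and SLC27A3, a fatty acid transport family gene, rose from 16.7 ± 3.2 to 24.9 ± 1.35 TPM (0.56, limma adjusted p = 0.00559). ILF2, an RNA-binding protein gene between them, fell from 478 ± 28.8 to 349 ± 10.1 TPM (-0.45, limma adjusted p = 0.000317). Of these 7 genes 28.6% rose and 14.3% fell, beside 30.4% and 21.2% of all genes tested. With so few genes, these shares do not set the edges of the row apart.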
